A study of Mus musculus with 15 samples.

Results

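Messenger RNA in the polysomal fraction was set against whole-cell RNA in untreated mouse neural stem cells, with 4 arrays of control polysomal RNA and 4 of control total RNA chosen by their titles out of the 15 arrays of the study. All 22626 probe sets other than the 64 Affymetrix controls were described, out of 22690 in the table, and they represent 12393 genes at 1 probe set per gene. The cells came from C57/B16 mice (the strain as the labels spell it), female and 6 weeks old, and grew as neurospheres, floating clusters of primary neural stem and progenitor cells. They were sampled at 48 h without CD95L-T4, a trimerised ligand of the death receptor CD95 that the other 7 arrays received. The titles call the 4 replicates of each group biological, without saying whether they came from separate mice or cultures. Standard errors and p-values thus measure a spread between arrays, pooled within groups over all 15 arrays, the CD95L-T4 arrays included. Beside an error, "n = 4 and 4" counts the control arrays whose means are compared. The labels describe a kit for total RNA and phenol-chloroform for polysomal RNA, and name the molecule total RNA in the former and polyA RNA in the latter. Fraction, extraction and molecule label therefore cannot be told apart, and how polysomes were separated from single ribosomes and free messages is not given in the sources used here.

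A polysome is a message with several ribosomes on it, and a message is commonly taken to be actively translated when it sits there. Long reading frames have room for many ribosomes and short ones for few, so where a gradient is divided decides how short messages are counted. Messages for secreted and membrane proteins are translated on the surface of the endoplasmic reticulum (ER), and upstream reading frames or start-site pyrimidine runs are known brakes and switches of translation. In neural stem cells translation is known to be held low at rest and to rise as cells begin to divide and differentiate.

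Each gene's difference is its mean log2 value in the 4 polysomal arrays minus that in the 4 total arrays, so 1 is 2-fold and a positive value is a larger share of polysomal than of total RNA. Of the 12393 genes, 4147 (33.5%) were higher and 2875 (23.2%) lower on polysomes at an adjusted p under 0.05 (limma, Benjamini-Hochberg). At least 2-fold differences besides that threshold were found for 652 genes higher (5.26%) and 579 lower (4.67%). At least 4-fold differences were rarer and one-sided, with 4 genes higher and 22 lower. The values of the 2 groups did not overlap in 6883 genes (55.5%), and the middle 50% of all differences lay between -0.19 and 0.34. These are relative amounts: the median of all genes was 0.10 as deposited, 0.19 with equal array medians, and it fell by 0.79 when arrays were scaled to the added poly-A control transcripts, which left 47 genes higher and 4724 lower. "Higher" and "lower" are thus set against the typical message. Among the 169 genes called and named by the rule for naming, none turned in sign under quantile or equal-median scaling, while with the poly-A controls 23 of the 83 called higher lay below 0 and 0 of the 86 called lower lay above it.

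The fractions were well parted. Arrays correlated at 0.997 to 0.998 within total RNA, at 0.996 to 0.998 within polysomal RNA and at 0.968 to 0.976 between them. The poly-A controls averaged 7.31 ± 0.26 (SD, n = 4) in total and 8.10 ± 0.24 (SD, n = 4) in polysomal arrays. The 3′ minus 5′ difference of the actin control probe sets, which grows as RNA is shorter or labelled less far, was 0.28 to 0.57 in total and 0.74 to 0.81 in polysomal arrays, and that of Gapdh was -0.31 to -0.25 against -0.04 to 0.09. The 18S rRNA controls stood at 6.53 to 8.01 and 7.76 to 8.20. These values move with the fraction in every comparison that follows, and their part in the results was not tested.

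Calls were more frequent, and more evenly divided, among well-detected genes. Among the 6683 genes whose probe set lay in the brighter 50% of the array, 39.9% were higher and 36.5% lower, with a median of 0.02. Among the other 5710 genes, 25.9% were higher and 7.65% lower, with a median of 0.12. Medians of gene lists are therefore also given for their bright members, meaning those in the brighter 50%. In the plot of gene lists the ends were far apart, from histones, mitochondrial ribosomal proteins and mitochondrial import at the top to lysosomal proteins and large ubiquitin ligases at the bottom.

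**Figure D1:**
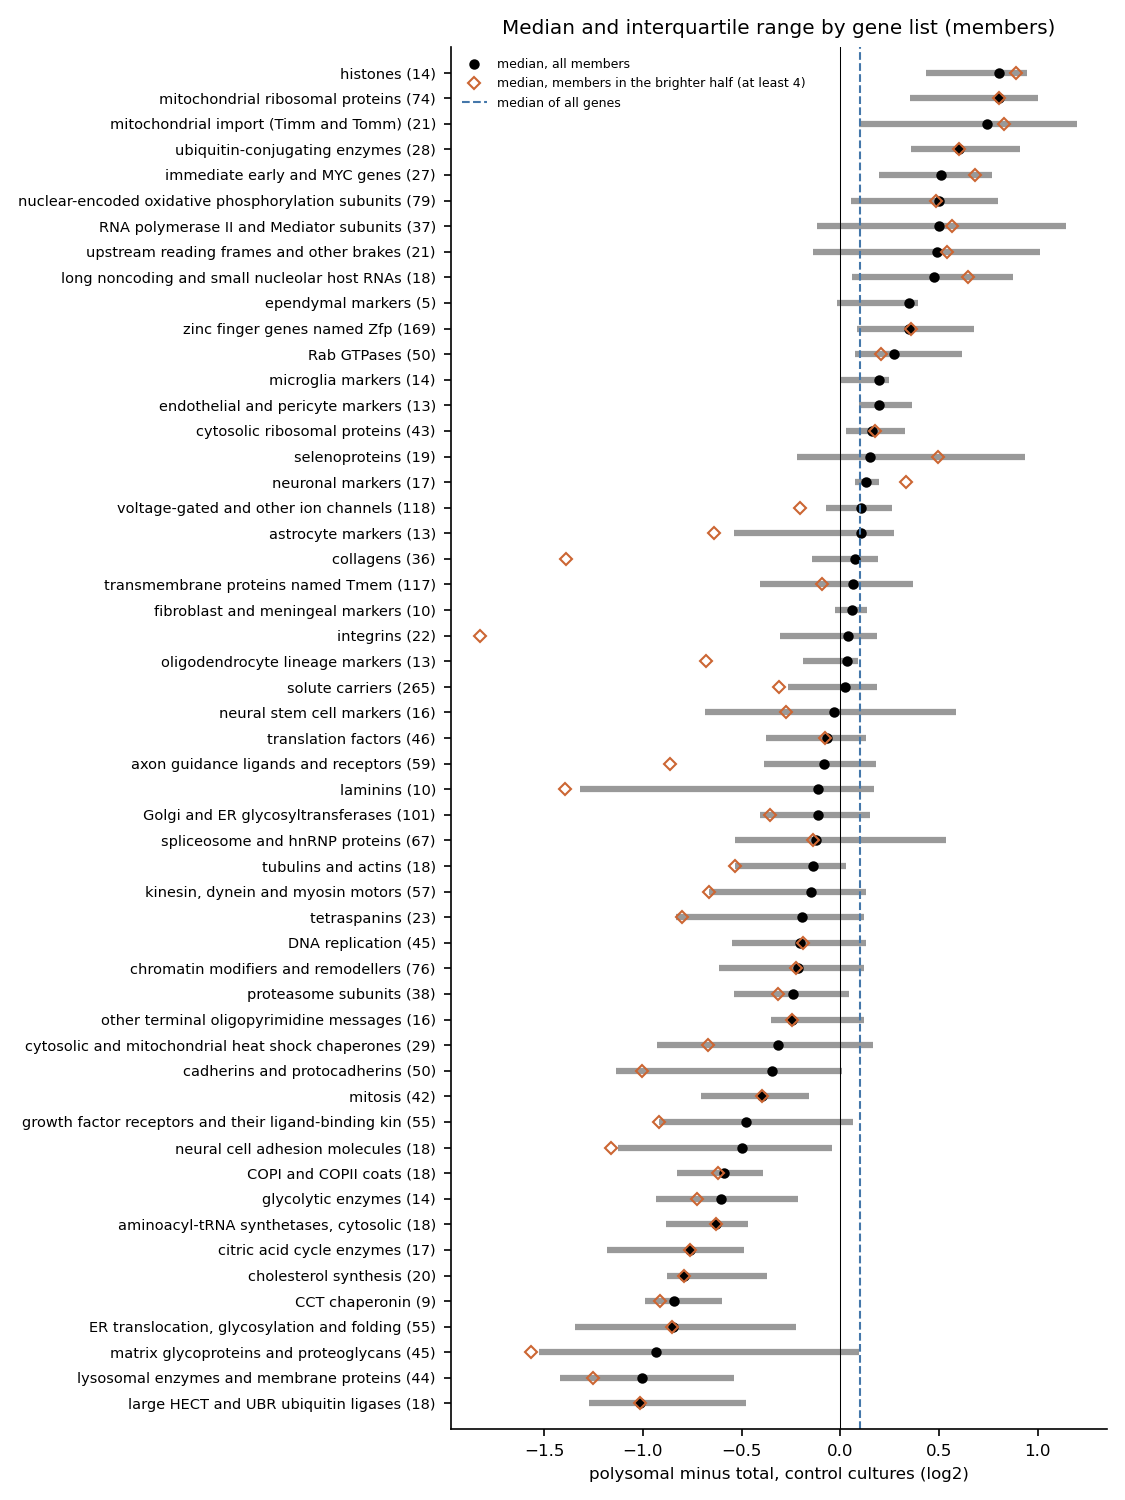
Polysomal minus total difference (log2, horizontal axis) for 53 gene lists with more than 1 member, ordered by median: black points are medians of all members, grey bars the middle 50% of members, open diamonds medians of bright members where there are at least 4, the dashed line the median of all genes (0.10). Histones (median 0.81) and mitochondrial ribosomal proteins (0.80) stand at the top and large HECT and UBR ubiquitin ligases (-1.02) at the bottom, while for collagens, integrins and laminins the bright members lie far below the rest.

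The translation machinery itself was split. Ribosomal protein messages of the cytosol begin with an unbroken run of C and T, the terminal oligopyrimidine tract through which mTOR signalling switches them on and off. Of 43 measured genes 22 (51.2%) were higher and 2 (4.65%) lower, with a median of 0.16. Of these genes 42 were bright, with a median of 0.17. Among all bright genes 39.9% were higher and 36.5% lower, with a median of 0.02. In the RefSeq start-site table (GRCm38.p6), 38 of the 43 were matched. Of these 12 (31.6%) have 5 or more C or T in a row from an annotated start, against 505 of 9887 matched genes (5.11%). Where a gene had several annotated starts, that with the longest run was taken, in the list and in all genes alike. The first 24 bases of the message are shown for 4 ribosomal protein genes with such a run and for 4 other genes of the class, because the class is defined by this sequence. Capitals mark the run of C or T from the first base, each line gives the message strand 5′ to 3′, and the genes were chosen after their values were seen.
Fau, chr19:6057947-6057970, plus strand: CTTCCTCTTTCTTgactccatctt
Rps6, chr4:86857344-86857367, minus strand: CTCTTTTTCgtgacgcctcccagg
Rpl35, chr2:39005108-39005131, minus strand: CTCTTTCTCTCgaaccaggctgct
Rpl27a, chr7:109519195-109519218, plus strand: TCCCTTTTCCCTTTCTgccaccgc
Eif3f, chr7:108934415-108934438, plus strand: CTCTCTTTCTCggcaagatggctt
Nap1l1, chr10:111473227-111473250, plus strand: CTTTTTTagcgccatctgctcgcg
Eef1a1, chr9:78481701-78481724, minus strand: TTCCCgagggtgggggagaacggt
Vim, chr2:13574311-13574334, plus strand: CTCTgccactcttgctccgggacc

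Of the 12 ribosomal protein genes with a run of 5 or more, 9 were higher and 0 lower, with a median of 0.30. Of the 26 with a shorter run 10 were higher and 2 lower, with a median of 0.10, and the difference between the 2 sets was not tested. Fau, which encodes a ubiquitin-like protein fused to a small-subunit protein, stood at 0.87, Rps6, the small-subunit protein phosphorylated downstream of mTOR, at 0.75, and Rpl35 at 0.29, all called higher. Rpl27a, with the longest run of the 4, stood at 0.31 and did not pass. Outside the ribosome, 3 of 11 matched messages of the class had such a run, with the initiation factor Eif3f higher (0.42) and the elongation factor Eef1a1 (-0.42) and the histone chaperone Nap1l1 (-0.22) lower. The call of Nap1l1 was lost with equal array medians (-0.13) and without any 1 of 5 arrays (-0.22 to -0.20). The filament protein Vim, with a run of 4, was lower (-1.05). Over all 9887 matched genes the median was 0.13 with a run of 5 or more and 0.10 with a shorter run, and run length and difference had a Spearman correlation of 0.01 across genes, which are not independent and share the arrays. Annotated starts often miss the true first base by a few bases, so a missing run says nothing of the message.

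Rps25, a small-subunit protein, had the largest difference of the ribosomal protein genes. Its values were 10.43, 10.45, 10.42 and 10.45 in the total and 11.86, 11.83, 11.81 and 11.81 in the polysomal arrays. The groups lay far apart, 2.62-fold at 1.39 ± 0.09 (SE, n = 4 and 4, limma adjusted p = 6.23e-10). Rpl37, a short large-subunit protein, followed at 1.13 ± 0.08, and Rpl12, at the base of the ribosome stalk, stood lowest at -0.34 ± 0.11 with groups that overlapped. That call was lost without control total replicate 1 (-0.30) or control polysomal replicate 3 (-0.31) or 4 (-0.25), and with equal array medians (-0.25). Small-subunit genes were higher in 13 of 21 and lower in 0, large-subunit genes higher in 9 of 22 and lower in 2. Ribosomal protein genes have many processed pseudogenes, so cross-hybridisation of these probe sets was not tested.

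The ribosome of the mitochondrion is built from proteins made in the cytosol and imported, and most of its genes were higher. Of 74 genes 60 were higher and 5 lower, with a median of 0.80, and 19 were at least 2-fold higher. Mrps21 gave 10.26, 10.14, 10.07 and 10.13 in total and 11.90, 11.74, 11.76 and 11.71 in polysomal arrays, 3.09-fold higher at 1.63 ± 0.09 (SE, n = 4 and 4, limma adjusted p = 2.85e-10). Mrpl54 stood at 1.57 ± 0.12. Both are among the small proteins of that ribosome, and every polysomal array exceeded every total array for both. Words on protein size, here and for other genes, are background, since protein length was not set against the differences. Mrpl3 ran the other way, at -0.73 ± 0.07.

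Initiation, elongation and release factors were lower in 19 and higher in 9 of 46, with a median of -0.07. Eif3a, the largest subunit of the initiation scaffold eIF3, stood at -1.21 ± 0.09, and Eif4g3, a cap-complex scaffold, at -1.09 ± 0.09. Eif1b, a small protein of start-codon choice, was the most enriched at 1.28 ± 0.07. Of 11 eIF3 subunits 7 were lower and 1 higher, a subset set apart after the values were seen. Cap-binding Eif4e (0.37) and its relative Eif4e2 (1.11), also named after their values were seen, were higher. The enzymes that charge transfer RNA in the cytosol were uniform: 16 of 18 were lower and 0 higher, with a median of -0.63.

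Alanyl-tRNA synthetase, Aars, fell furthest. It gave 11.38, 11.28, 11.40 and 11.34 in total and 9.86, 9.88, 9.93 and 10.02 in polysomal arrays, 2.69-fold lower at -1.43 ± 0.07 (SE, n = 4 and 4, limma adjusted p = 5.30e-11). Leucyl-tRNA synthetase, Lars, stood at -0.99 ± 0.06, and the members that did not pass, outside the rule, were Farsa (0.07) and Farsb (0.04), the 2 subunits of the phenylalanyl enzyme. Mitochondrial synthetases, a set added after the values were seen, were not uniform, with 3 of 8 higher and 3 lower. Of the 16 other messages known to carry a terminal oligopyrimidine tract 9 were lower and 3 higher, with a median of -0.25. Hnrnpa1, an RNA-binding protein of this list, stood at 0.47 ± 0.09, a call lost with the mean of its probe sets (0.30).

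Within single machines of the nucleus, subunits lay on opposite sides, as the plot of subunits shows. Of 67 genes of the spliceosome and the hnRNP proteins 23 were higher and 28 lower, with a median of -0.13. Lsm10, a small ring protein of the histone-processing U7 particle, gave 8.84, 8.65, 8.66 and 8.64 in total and 10.26, 10.19, 10.19 and 10.16 in polysomal arrays. It was 2.83-fold higher at 1.503 ± 0.09 (SE, n = 4 and 4, limma adjusted p = 5.94e-10). Prpf8, the very large protein at the heart of the spliceosome, gave 11.70, 11.52, 11.61 and 11.54 in total and 9.82, 9.95, 9.97 and 10.01 in polysomal arrays. It was 3.15-fold lower at -1.66 ± 0.09 (SE, n = 4 and 4, limma adjusted p = 1.45e-10). Neither pair of groups overlapped.

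The following subsets of that list were formed after the values were seen. Of 10 genes named Lsm, among them those of the small ring proteins, 8 were higher and 0 lower, with a median of 1.05. Genes named Snrp, for proteins of the small nuclear particles, were higher in 6 of 8, with Snrpd3 at 1.27. Genes for hnRNP proteins, abundant packagers of new transcripts, were lower in 14 of 18 and higher in 1, with a median of -0.56. Hnrnpa2b1 stood at -1.05 ± 0.11. Within the branch-site complex SF3B, Sf3b1 (-0.92) and Sf3b2 (-0.78) were lower, while Sf3b5 (0.63) and Sf3b6 (0.64) were higher. The 2 partners that recognise the end of an intron parted too, with U2af2 at -0.62 and U2af1 at 1.12, the latter with groups that overlapped.

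RNA polymerase II and its coactivator Mediator also had subunits on both sides. Of 37 genes 24 were higher and 8 lower, with a median of 0.50. Polr2a and Polr2b, the 2 large subunits that form the catalytic cleft, were both lower, at -0.43 and -1.02, the former a call lost with the mean of its probe sets (-0.20). All 9 other polymerase II genes measured were higher, from 0.38 to 1.54. The split of the polymerase was made after the values were seen. Polr2i, a small subunit, stood at 1.54 ± 0.09. In Mediator, Med12, a large protein of the kinase module, stood at -1.27 ± 0.07 and Med21, a small protein of the middle module, at 1.61 ± 0.10. Med9 (1.33) and Med11 (1.495) were higher and Med23 (-0.52) and Med24 (-0.64) lower, named after their values were seen.

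**Figure D2:**
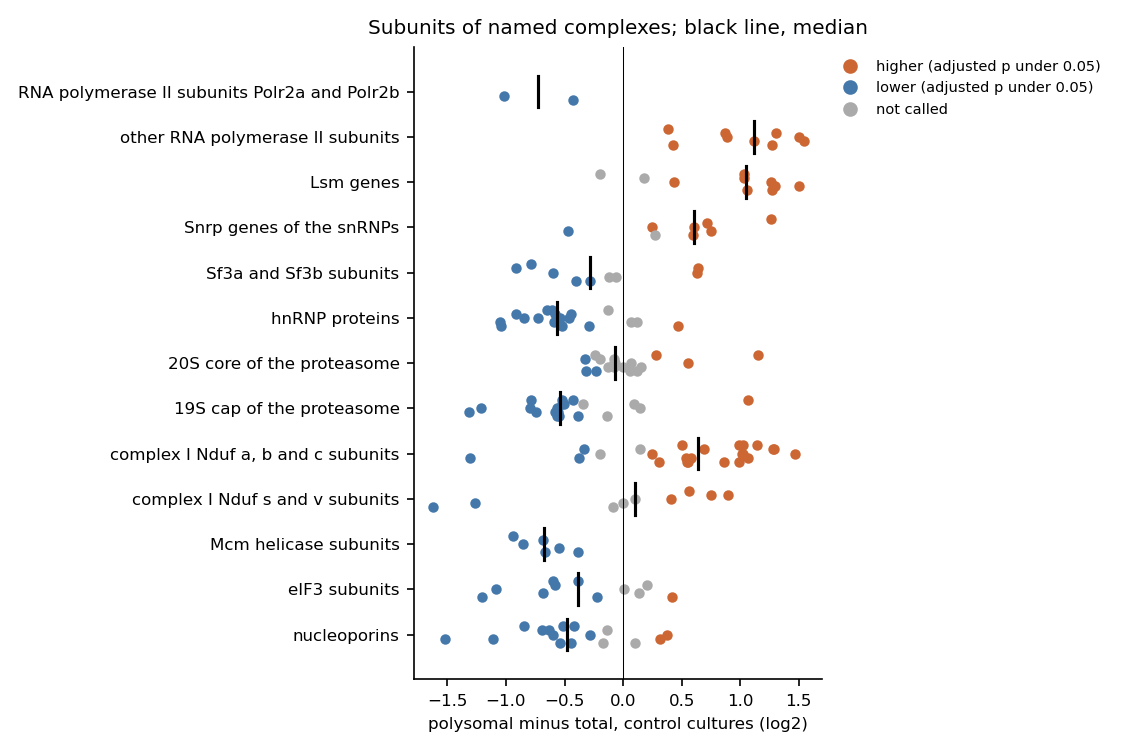
Polysomal minus total difference (log2, horizontal axis) of every measured subunit in 13 complexes or families, 1 point per gene: orange is higher and blue lower at an adjusted p under 0.05, grey not called, the black line the median. Polr2a and Polr2b lie below 0 and the other 9 polymerase II subunits above it, Lsm and Snrp genes lie mostly to the right of hnRNP genes, and the 6 Mcm subunits are all lower.

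Messages of mitochondrial proteins lay on both sides. Nuclear genes of oxidative phosphorylation were higher in 54 and lower in 14 of 79, with a median of 0.50. Ndufb1, an accessory subunit of complex I, gave 8.03, 7.95, 7.95 and 7.92 in total and 9.55, 9.42, 9.35 and 9.40 in polysomal arrays, at 1.47 ± 0.10 (SE, n = 4 and 4, limma adjusted p = 1.72e-09). Atp5e, the smallest part of the ATP synthase motor, stood at 1.31 ± 0.09. Sdha, the flavoprotein that couples the citric acid cycle to the respiratory chain, was the extreme on the other side. It gave 11.33, 11.34, 11.42 and 11.39 in total and 9.38, 9.34, 9.34 and 9.32 in polysomal arrays, 4.07-fold lower at -2.03 ± 0.06 (SE, n = 4 and 4, limma adjusted p = 1.36e-12). No array of 1 group reached the other for either gene.

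Further subunits on both sides were named after their values were seen and support no pattern. The catalytic subunits of ATP synthase, Atp5a1 (-1.52) and Atp5b (-1.45), the complex I electron carriers Ndufs1 (-1.63) and Ndufv1 (-1.26), and the complex III core protein Uqcrc1 (-1.06) were lower. The membrane anchors of complex II, Sdhc (0.47) and Sdhd (0.45), and Uqcr11 of complex III (1.25) were higher. Complex I genes named Ndufa, Ndufb or Ndufc were higher in 19 of 24, and those named Ndufs or Ndufv in 4 of 9. The import machinery of the Timm and Tomm genes was higher in 15 and lower in 2 of 21, with a median of 0.74. Timm8b, a small chaperone between the membranes, rose 2.98-fold (1.58 ± 0.09) and Tomm7 of the outer pore stood at 1.39 ± 0.10, while the receptor Tomm70a stood at -0.44 ± 0.11. The only mitochondrially encoded message of the lists, ND5 of complex I, stood at -3.30. It is made and translated inside the organelle.

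Soluble enzymes of energy metabolism were mostly lower. Of 17 citric acid cycle genes 14 were lower and 2 higher, with a median of -0.76. Ogdh, the large first component of the oxoglutarate dehydrogenase complex, stood at -1.66 ± 0.07. The members that were higher were the membrane anchors Sdhc and Sdhd. Of 14 glycolytic genes 10 were lower and 0 higher, with a median of -0.61. Pkm, pyruvate kinase, gave 12.43, 12.37, 12.43 and 12.57 in total and 11.25, 11.22, 11.35 and 11.53 in polysomal arrays. It was 2.16-fold lower at -1.11 ± 0.09 (SE, n = 4 and 4, limma adjusted p = 8.17e-09), with no overlap. Hk1, hexokinase, stood at -1.05 ± 0.08.

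Cholesterol synthesis genes were lower in 16 and higher in 3 of 20, with a median of -0.79. Cyp51, lanosterol demethylase, and Sqle, squalene epoxidase, are enzymes anchored in the ER membrane. They stood at -1.57 ± 0.08 and -1.51 ± 0.07. The 3 members that were higher, all early enzymes of the mevalonate steps, were Pmvk (0.58), Mvk (0.55) and Mvd (0.27), the last pair named after their values were seen. The call of Mvd was lost without control total replicate 3 (0.25) or 4 (0.22) or control polysomal replicate 3 (0.25) or 4 (0.26).

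In protein turnover, partners of 1 pathway lay on opposite sides. Ubiquitin-conjugating (E2) enzymes, compact proteins that carry activated ubiquitin, were higher in 23 and lower in 0 of 28, with a median of 0.60. Ube2f, which carries the ubiquitin-like Nedd8, gave 10.55, 10.49, 10.49 and 10.46 in total and 11.61, 11.63, 11.66 and 11.60 in polysomal arrays, at 1.13 ± 0.07 (SE, n = 4 and 4, limma adjusted p = 5.29e-10). Ube2v2, a catalytically inactive partner in chain building, stood at 1.14 ± 0.10. The large HECT and UBR ligases that take ubiquitin from such enzymes were lower in 14 and higher in 2 of 18, with a median of -1.02. Nedd4, a HECT ligase of membrane proteins, gave 12.01, 11.99, 12.14 and 12.16 in total and 10.21, 10.34, 9.99 and 10.11 in polysomal arrays. It was 3.76-fold lower at -1.91 ± 0.08 (SE, n = 4 and 4, limma adjusted p = 2.97e-11). Huwe1, one of the longest proteins of the class, stood at -1.72 ± 0.12, and Wwp1 was the most enriched ligase at 0.64 ± 0.07. The lists do not share a member, and the difference between them was not tested.

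The proteasome, which degrades what the ligases mark, was lower in 18 and higher in 4 of 38 genes, with a median of -0.24. Psmd1 and Psmd2, the 2 large scaffold proteins of the regulatory cap, stood at -1.32 ± 0.07 and -1.21 ± 0.08. Psmb10, an immunoproteasome subunit, was the most enriched at 1.15 ± 0.09. Cap genes were lower in 15 of 20 with a median of -0.54, and core genes lower in 3 of 18 with a median of -0.07, a split made after the values were seen. The CCT chaperonin, which folds actin and tubulin, was lower in 8 of 9 genes, with a median of -0.85. Cct8 stood at -1.13 ± 0.09 and Cct7 at -1.09 ± 0.08. The list's other gene lay in the dimmer probe sets and did not pass. Heat shock chaperones were lower in 16 and higher in 6 of 29, with a median of -0.32. The mitochondrial chaperones Hspa9 (-1.63 ± 0.07) and Hspd1 (-1.63 ± 0.07) were lowest, and the small heat shock protein Cryab highest at 1.70 ± 0.13.

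In each of 4 lists of the secretory pathway, from the ER to the lysosome, more genes were lower than higher. Of 55 genes of ER translocation, glycosylation and folding 41 were lower and 8 higher, with a median of -0.85, and 23 were at least 2-fold lower. Pdia3, a disulfide isomerase of glycoprotein folding, gave 12.07, 12.30, 12.25 and 12.29 in total and 10.14, 10.26, 9.90 and 9.80 in polysomal arrays. It was 4.6-fold lower at -2.20 ± 0.14 (SE, n = 4 and 4, limma adjusted p = 6.34e-10). Sel1l, an adaptor of ER-associated degradation, stood at -1.85 ± 0.10. The chaperones Hspa5 (-1.55), Hsp90b1 (-1.73), Canx (-1.73) and Calr (-1.47), named after their values were seen, were all lower.

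The members that were higher included genes of targeting. Srp19, a protein of the signal recognition particle in the cytosol, gave 10.53, 10.56, 10.54 and 10.47 in total and 11.80, 11.71, 11.60 and 11.56 in polysomal arrays, at 1.14 ± 0.09 (SE, n = 4 and 4, limma adjusted p = 4.13e-09). Srp9 (1.11) and Srp14 (0.92) of the same particle were higher as well. Of the translocation channel, the tail-anchored Sec61b was higher (1.09) and the pore protein Sec61a1 lower (-1.48). Of the sugar-transferring complex, Ost4 was higher (1.14) and Rpn2 lower (-1.82). These 6 were named after their values were seen.

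The COPI and COPII coats of vesicles between ER and Golgi were lower in 14 and higher in 2 of 18, with a median of -0.59. Copb2 and Copg1 of the COPI coat stood at -1.24 ± 0.06 and -1.16 ± 0.09, and Copz2, the small zeta subunit, at 0.91 ± 0.11. Glycosyltransferases were lower in 43 and higher in 20 of 101, with a median of -0.12 over all and -0.36 over 48 bright members. Hs6st2, which sulfates heparan sulfate, and Galnt4, which starts mucin-type chains, stood at -1.70 ± 0.10 and -1.63 ± 0.09. Lysosomal genes were lower in 36 and higher in 2 of 44, with a median of -1.01, and 22 were at least 2-fold lower. Grn, the progranulin precursor, stood at -1.85 ± 0.12. Scarb2, a membrane protein that delivers glucocerebrosidase to lysosomes, gave 10.09, 10.25, 10.30 and 10.34 in total and 8.51, 8.52, 8.24 and 8.38 in polysomal arrays, 3.56-fold lower at -1.83 ± 0.09 (SE, n = 4 and 4, limma adjusted p = 7.78e-11). The proteases Ctsl (-1.79) and Ctsb (-1.76) and the membrane glycoprotein Lamp1 (-1.40) were also lower, chosen after their values were seen.

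The extracellular matrix of the neurosphere and the cell surface carried several of the largest falls. Matrix glycoproteins and proteoglycans were lower in 25 and higher in 3 of 45, with a median of -0.94, and 21 of 22 bright members were lower. Tnc, the glycoprotein tenascin-C, gave 11.92, 11.77, 11.93 and 11.85 in total and 8.94, 9.06, 8.86 and 8.89 in polysomal arrays, 7.62-fold lower at -2.93 ± 0.12 (SE, n = 4 and 4, limma adjusted p = 2.03e-11). Spon1, a floor-plate adhesion protein, stood at -2.02 ± 0.09. Ncan (-1.89), the brain proteoglycan neurocan, and Fn1 (-1.76), fibronectin, were named after their values were seen. Laminins, collagens and integrins had few bright members, and those were low: 4 of 5 laminins, 3 of 4 collagens and 3 of 4 integrins were lower. Over all members the same lists counted 4 of 10, 7 of 36 and 7 of 22 lower, with 1, 6 and 4 higher. Lamc1, the gamma chain shared by most laminins, gave 10.05, 9.90, 9.96 and 10.05 in total and 7.84, 8.04, 7.71 and 7.87 in polysomal arrays, 4.36-fold lower at -2.13 ± 0.11 (SE, n = 4 and 4, limma adjusted p = 9.22e-11). Lamb1 stood at -1.80 ± 0.12 and Lamb3, an epithelial chain, at 1.05 ± 0.09.

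The fibrillar collagen gene Col5a2 stood at -2.36 ± 0.09 and the common integrin beta chain Itgb1 at -2.55 ± 0.16. Of cadherins and protocadherins 29 of 50 were lower and 2 higher. Cdh4, a classical cadherin of the nervous system, stood at -1.72 ± 0.10, and Celsr2, a giant cadherin of planar polarity, at -1.71 ± 0.10. Neural cell adhesion molecules were lower in 10 of 18 with 0 higher. Nrcam gave 9.87, 9.97, 10.04 and 9.97 in total and 8.07, 8.16, 7.93 and 7.99 in polysomal arrays, at -1.93 ± 0.10 (SE, n = 4 and 4, limma adjusted p = 8.84e-11), and Ncam1 stood at -1.52 ± 0.07. Axon guidance genes were lower in 20 and higher in 11 of 59, with 15 of 16 bright members lower. Ntn1, the secreted guidance cue netrin, stood at -2.09 ± 0.08 and Plxnb2, a semaphorin receptor, at -1.85 ± 0.08.

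Tetraspanins, membrane organisers, were lower in 11 and higher in 4 of 23, with Cd81 at -1.72 ± 0.08. Growth factor receptors and their kin were lower in 31 and higher in 6 of 55, and 25 of 27 bright members were lower. Igf2r, which clears insulin-like growth factor 2, stood at -1.48 ± 0.14 and Notch2 at -1.41 ± 0.11. Notch4, a dim gene, stood at 1.41 ± 0.13. Surface genes that were higher included Cdh22 (0.56), Itgae (0.60) and Thbs3 (0.61).

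Other classes of membrane protein lay on both sides. Solute carriers were higher in 53 and lower in 73 of 265, and lower in 61 of 107 bright members. Slc39a6, a zinc importer of the cell surface, stood at -1.64 ± 0.07, while the mitochondrial carriers Slc25a23 and Slc25a33 stood at 1.20 ± 0.08 and 1.16 ± 0.08. Genes named Tmem were higher in 39 (33.3%) and lower in 43 (36.8%) of 117, against 33.5% and 23.2% of all genes. They ranged from Tmem30a, a subunit of lipid flippases, at -1.90 ± 0.11 to Tmem242 at 1.87 ± 0.13. Their median relative to all genes was -0.03 and turned to 0.03 under quantile normalisation. Ion channels were mostly dim, with 16 bright genes of 118. Of all channels 35 (29.7%) were higher and 21 (17.8%) lower, with the chloride-proton exchanger Clcn3 at -1.23 ± 0.10 and the calcium channel Cacna1a at 1.10 ± 0.10. Over all genes the shares were 33.5% and 23.2%, and the channel median lay 0.0075 from that of all genes.

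Motor genes were lower more often than higher. Of 57 kinesin, dynein and myosin genes 27 were lower and 9 higher, and 22 of 27 bright members were lower with 0 higher. Dync1h1, the very large motor chain of cytoplasmic dynein, gave 10.48, 10.26, 10.35 and 10.27 in total and 8.50, 8.58, 8.36 and 8.55 in polysomal arrays. It was 3.59-fold lower at -1.84 ± 0.12 (SE, n = 4 and 4, limma adjusted p = 7.17e-10). Kif1b, a kinesin of organelle transport, stood at -1.65 ± 0.09. Tubulins and actins were lower in 7 and higher in 0 of 18, led by the beta-tubulin Tubb5 at -1.003 ± 0.08. Rab GTPases, small switches of vesicle traffic, went the other way, with 26 of 50 higher and 6 lower and a median of 0.27. Rab28 stood at 1.06 ± 0.09, Rab40b at 1.19 ± 0.14 and Rab10 at -0.93 ± 0.11.

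Regulators of the genome were split by class. Zinc finger genes named Zfp, mostly DNA-binding repressors, were higher in 98 and lower in 19 of 169, with a median of 0.35. Zfp593, a small ribosome assembly factor rather than a long zinc finger array, led at 1.45 ± 0.10, and Zfp445, an imprinting regulator, stood lowest at -0.97 ± 0.09. Chromatin modifiers and remodellers were lower in 36 and higher in 14 of 76, with a median of -0.22. Atrx, a remodelling ATPase, and Kmt2c, a very large histone methyltransferase, stood at -1.55 ± 0.18 and -1.44 ± 0.15, and the methyltransferase of histone H4, Kmt5a, at 1.02 ± 0.10.

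Histone genes were higher in 11 and lower in 0 of 14, with a median of 0.81. H1f4, a linker histone, gave 4.15, 4.33, 4.90 and 4.93 in total and 8.16, 7.47, 8.01 and 7.68 in polysomal arrays. This was the largest measured rise of all genes, at least 9.53-fold at 3.25 ± 0.18 (SE, n = 4 and 4, limma adjusted p = 1.81e-10). The total values lie around the lower quartile of those arrays (4.50 to 4.55), where a probe set is not shown to be above background, so the size is a lower bound. The core histone gene H2ac19 stood at 1.63 ± 0.12. Replication-dependent histone messages end in a stem-loop rather than a poly(A) tail, and the molecule labels of the fractions differ in poly(A), so fraction and label cannot be told apart for them. The variant histone genes H2az1 (0.75) and H2az2 (0.86), whose messages carry a tail, were also higher and were named after their values were seen. The part of the poly(A) tail in the differences of histone genes was not tested.

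Among cell division genes more were lower than higher. DNA replication genes were lower in 21 and higher in 11 of 45, and mitosis genes lower in 29 and higher in 6 of 42, with medians of -0.21 and -0.40. Rrm1, the large subunit of ribonucleotide reductase, stood at -1.14 ± 0.06 and Smc2, a condensin arm, at -1.14 ± 0.08. The proliferation marker Mki67 gave 11.88, 11.75, 11.91 and 11.90 in total and 10.31, 10.45, 10.29 and 10.50 in polysomal arrays, 2.78-fold lower at -1.47 ± 0.11 (SE, n = 4 and 4, limma adjusted p = 3.51e-09). All 6 Mcm genes of the replicative helicase were lower, from -0.94 to -0.39. Pole4, a small histone-fold subunit of DNA polymerase epsilon, stood at 1.46 ± 0.11, and of further subunits, named after their values were seen, Pole3 (1.20), Pold4 (1.25) and Rpa3 (1.06) were higher. Their partners Pole (-0.79), Pold1 (-0.53) and Rpa1 (-0.85), named in the same way, were lower. In mitosis the small inhibitor-of-apoptosis protein Birc5 was highest at 1.04 ± 0.08.

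Messages known for brakes on translation were mostly higher on polysomes of untreated cells. Of 21 genes with upstream reading frames or other known brakes 14 were higher and 5 lower, with a median of 0.49. Atf5, a stress transcription factor held down by upstream reading frames until eIF2 is phosphorylated, gave 7.66, 7.62, 7.58 and 7.63 in total and 9.54, 9.32, 9.58 and 9.48 in polysomal arrays. It was 3.62-fold higher at 1.86 ± 0.09 (SE, n = 4 and 4, limma adjusted p = 1.13e-10). Ddit3, the stress factor CHOP, stood at 1.595 ± 0.08. Atf4, the archetype of this control, gave 11.99, 11.88, 11.93 and 11.92 in total and 12.74, 12.73, 12.70 and 12.66 in polysomal arrays, at 0.78 ± 0.07 (SE, n = 4 and 4, limma adjusted p = 2.36e-08). On the low side Bace1, the beta-secretase with a long upstream region, stood at -1.5 ± 0.11.

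Other members, named after their values were seen, were the translation repressor Eif4ebp1 at 1.44, the polyamine enzyme Sat1 at 1.49 and the phosphatase subunit Ppp1r15a at 1.01. The list also counts the transferrin receptor Tfrc (-1.24), named in the same way, whose known control by iron acts on message decay and not on translation. Fth1, the ferritin heavy chain under iron control, stood at 0.25 ± 0.08, a call lost under quantile normalisation (0.15). Immediate early and MYC genes, which are induced within minutes of a stimulus and whose messages decay fast, were higher in 18 and lower in 2 of 27, with a median of 0.51. Ier3 stood at 1.31 ± 0.10 and Arc at 1.27 ± 0.14, while Dusp6, a phosphatase in feedback on ERK, stood at -0.54 ± 0.10. Selenoproteins, which need recoding of a stop codon, were divided into 8 higher and 7 lower of 19. Msrb1 and Gpx1, both small redox enzymes, stood at 1.43 ± 0.09 and 1.43 ± 0.09, and the ER membrane protein Selenon at -0.65 ± 0.09.

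Transcripts without a known protein were also found in the polysomal RNA. Of the 18 long noncoding and small nucleolar host RNAs 10 were higher and 3 lower. Snhg8, a host of small nucleolar RNA, gave 10.66, 10.47, 10.51 and 10.35 in total and 12.19, 11.90, 11.85 and 11.83 in polysomal arrays. It was 2.72-fold higher at 1.45 ± 0.12 (SE, n = 4 and 4, limma adjusted p = 1.13e-08). Pvt1 stood at 1.19 ± 0.09, and Xist, which coats the inactive X chromosome, was the lowest (-3.15). The following RNAs were chosen after their values were seen. Gas5, a host gene with a terminal oligopyrimidine tract whose spliced RNA is known to be bound by ribosomes, gave 12.66, 12.53, 12.53 and 12.50 in total and 13.28, 13.20, 13.16 and 13.16 in polysomal arrays, at 0.65 ± 0.07, but the mean of its probe sets was 0.056 and did not pass. RNAs known to stay in the nucleus had no common direction, with Airn (0.66) higher, Neat1 (0.26) not called and Malat1 (-0.93) lower with groups that overlapped. Malat1 stood at 12.03 in control total replicate 2 and at 10.59 to 10.76 in the other total arrays, and its call was lost without that array (-0.60), without control polysomal replicate 3 (-0.77) or 4 (-0.72), with the mean of its probe sets (-0.52), with equal array medians (-0.84), with quantile normalisation of the 8 control arrays (-0.93) and with trended and robust variance. Tug1 (-0.56) was lower.

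RefSeq classes, added after the values were seen, gave a wider view. Of 130 genes classed as long noncoding RNA 59 were higher and 10 lower, with a median of 0.24. Among the 31 bright ones 25 were higher and 5 lower, with a median of 0.96, against 0.02 for 6633 bright protein-coding genes. A symbol's class in RefSeq can change as reading frames are found, and whether a probe set reads the noncoding RNA or an overlapping gene was not tested. Strand and overlap could matter for names ending in os, for opposite strand, such as Brip1os (-0.99) and Map2k3os (1.18).

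**Figure D3:**
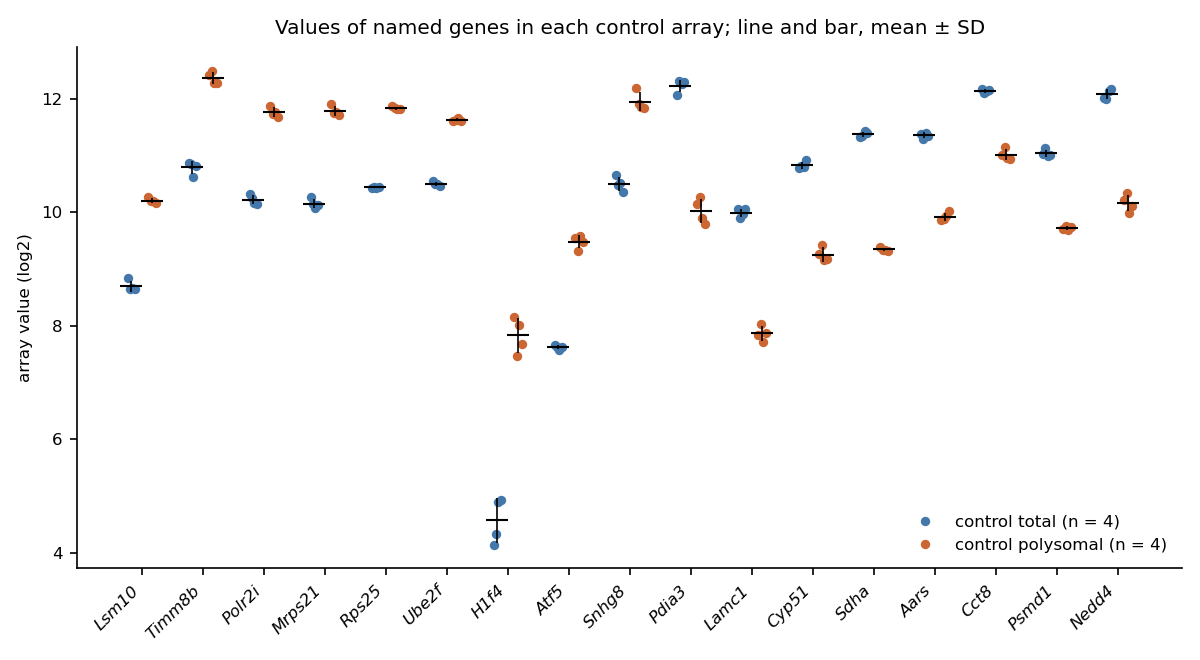
Log2 array values (vertical axis) of 17 genes in the 4 control total (blue) and 4 control polysomal (orange) arrays, with mean and SD in black. The first 9 genes, from Lsm10 to Snhg8, are higher in every polysomal array than in any total array, and the last 8, from Pdia3 to Nedd4, are lower in every polysomal array.

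Markers of neural stem cells, checked against the label of the cultures, were bright in 14 of 16. Sox2, the core stem cell factor, gave 11.71, 11.63, 11.71 and 11.72 in total and 10.98, 11.16, 11.08 and 11.23 in polysomal arrays, at -0.58 ± 0.12 (SE, n = 4 and 4, limma adjusted p = 5.26e-04). Nes, the filament nestin, gave 11.25, 10.94, 11.05 and 11.13 in total and 10.36, 10.41, 10.66 and 10.78 in polysomal arrays, at -0.54 ± 0.13 (SE, n = 4 and 4, limma adjusted p = 0.00233). Both fell modestly and without overlap. Of the 16 markers 5 (31.2%) were higher and 7 (43.8%) lower, against 39.9% and 36.5% of all bright genes. The receptor Notch1 stood at -1.29 ± 0.07 and the glutamate transporter Slc1a3 at -1.41 ± 0.08, while the small Notch effector Hes5 stood at 1.02 ± 0.10. The helix-loop-helix inhibitors Id1 (0.95) and Id3 (0.84) were higher, named after their values were seen. The progenitor factors Olig2 (-0.19) and Pax6 (0.16) did not pass here but did in other settings, Olig2 in 6 and Pax6 in 7 of 18. Pax6 had probe sets called in both directions.

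Markers of other cells were mostly dim. None of the 14 microglial, 13 endothelial and pericyte, 10 fibroblast and meningeal and 5 ependymal markers measured was in the brighter 50%. Of them 4, 5, 0 and 3 were higher and 0 lower in each, against 25.9% higher and 7.65% lower of all genes outside the brighter 50%. Neuronal markers were bright in 4 of 17, with Gap43, a growth cone protein, at 0.69 ± 0.08, the dendritic protein Map2 at -1.603 ± 0.13, and Dcx (0.18) and Tubb3 (0.06) not called. Of astrocyte markers 5 of 13 were bright, with Sparcl1, a secreted matrix protein, at -2.01 ± 0.08, S100b, a small calcium-binding protein, at 1.73 ± 0.13, and Gfap dim at 0.42 ± 0.15, a call lost without control total replicate 1 (0.37) or control polysomal replicate 1 (0.36). Of oligodendrocyte markers 4 of 13 were bright, with Cspg4 at -1.02 ± 0.10. Fas, the receptor of the ligand used in the study, was dim and did not pass (-0.05). The common reference gene Actb stood at -0.61, a call lost with the mean of its probe sets (-0.17), and the probe set annotated to Gapdh also lists related genes and was given no name.

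Genes with the largest rises were, after H1f4, of varied kinds. Mt3, the brain metallothionein, gave 8.68, 8.79, 8.51 and 8.51 in total and 11.03, 10.82, 10.93 and 10.69 in polysomal arrays, 4.74-fold higher at 2.25 ± 0.19 (SE, n = 4 and 4, limma adjusted p = 1.93e-08). Swsap1, a recombination cofactor, stood at 2.01 ± 0.19, the small integral membrane protein gene Smim27 at 1.97 ± 0.11, the small stress regulator Nupr1 at 1.79 ± 0.13, and Pkig, a small inhibitor of protein kinase A, at 1.83 ± 0.12. The rest of the 15, besides Atf5, were 1810044D09Rik, 1110032A03Rik, ccdc198, Tmem242, Ankrd24, Borcs7, Itgb3bp and Gm5617, between 1.81 and 2.04. Among the 15 largest falls, Acaca, the large acetyl-CoA carboxylase that starts fatty acid synthesis, gave 6.28, 6.56, 7.0 and 7.05 in total and 4.08, 4.15, 4.54 and 4.31 in polysomal arrays, at -2.45 ± 0.18 (SE, n = 4 and 4, limma adjusted p = 2.83e-09). Its polysomal values lie below the lower quartile of those arrays (4.58 to 4.66), as do those of Phxr4, so these sizes are lower bounds. The same holds on the other side for ccdc198, Cacna1a, Rab40b and Itgae, whose mean in total RNA lies below the lower quartile. The surface protein Cd109 stood at -2.41 ± 0.13, the Golgi glycoprotein Glg1 at -2.39 ± 0.09, the amyloid precursor App at -2.23 ± 0.11 and the secreted Igfbp5 at -2.11 ± 0.09. Further members were the collagen chain Col4a5 (-2.30) and Phxr4 (-2.41).

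A survey that did not use the lists grouped genes by the letters of their symbols before the first digit. Of 155 families with at least 10 genes, the highest medians were those of Lsm (1.05, 10 genes), Mrps (0.86, 27 genes), Ndufb (0.84, 10 genes), Timm (0.83, 14 genes), Nudt (0.78, 17 genes), Mrpl (0.66, 47 genes), Polr (0.61, 24 genes) and Cox (0.56, 22 genes). The lowest were Pcdhb (-0.90, 22 genes), Hspa (-0.57, 11 genes), Psmd (-0.54, 14 genes), Nup (-0.48, 16 genes), Sec (-0.44, 23 genes), Ints (-0.43, 13 genes), Kif (-0.35, 24 genes) and Dhx (-0.34, 11 genes). The family Nudt, hydrolases of nucleotide derivatives, and the nuclear pore family Nup were on no list. Nup genes were lower in 11 of 16 and higher in 2, and Nudt genes higher in 12 of 17 and lower in 0. The beta protocadherins, surface proteins that give neurons their identity, were lower in 16 of 22, though 0 of them were bright.

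The span of the gene in RefSeq, introns included, ran with the difference, a description added after the values were seen. In the brighter 50% of genes the Spearman correlation was -0.39 across 6678 genes, and over all 12377 matched genes it was -0.31. Genes are not independent, and span is not message length, which was not analysed here. In the shortest 20% of bright genes, 0.49 to 7.98 kb, 64.5% were higher and 16.2% lower, with a median of 0.50. In the longest 20%, 60.8 to 2390 kb, 19.4% were higher and 56.4% lower, with a median of -0.32. The 3 bins between lay in order, with 51.8%, 37.3% and 26.8% higher.

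**Figure D4:**
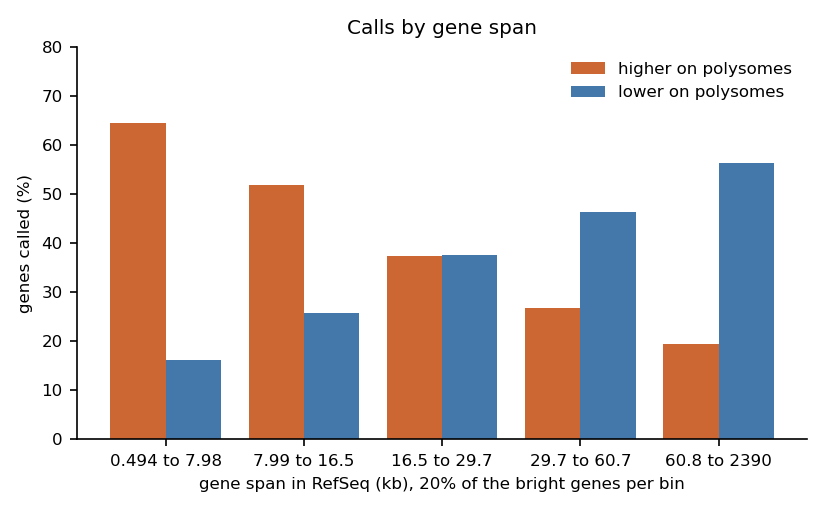
Share of genes called higher (orange) or lower (blue) on polysomes (vertical axis, %) by gene span (horizontal axis, kb; each bin holds 20% of the genes) among genes in the brighter 50%. The share higher falls from 64.5% to 19.4% and the share lower rises from 16.2% to 56.4% between the shortest and the longest genes.

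The CD95L-T4 cultures gave the same comparison on 7 arrays that share none with the control arrays. Of the 7022 genes called in control cultures 6902 (98.3%) had the same sign there, and 1230 of the 1231 genes with at least 2-fold differences. Across 12393 genes the differences had a Pearson correlation of 0.96 and a Spearman correlation of 0.92. In the test of the difference between the cultures limma called 0 genes at the adjusted threshold. At an unadjusted p under 0.05 there were 495 genes (3.99%), no more than that threshold alone would give. List medians moved by at most 0.1 between the cultures in 36 of 54 lists, among them cytosolic ribosomal proteins (0.15 in the CD95L-T4 cultures) and lysosomal proteins (-0.94). Of the larger moves, heat shock chaperones went from -0.32 in control to -0.01 in CD95L-T4 cultures, large ubiquitin ligases from -1.02 to -0.73, the proteasome from -0.24 to -0.051, noncoding and host RNAs from 0.48 to 0.26, and Timm and Tomm genes from 0.74 to 0.57. The sign of the median differed in 7 lists, among them collagens (0.07 against -0.08) and translation factors (-0.07 against 0.019), all within 0.102 of 0 in control cultures. These moves of list medians were not tested.

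**Figure D5:**
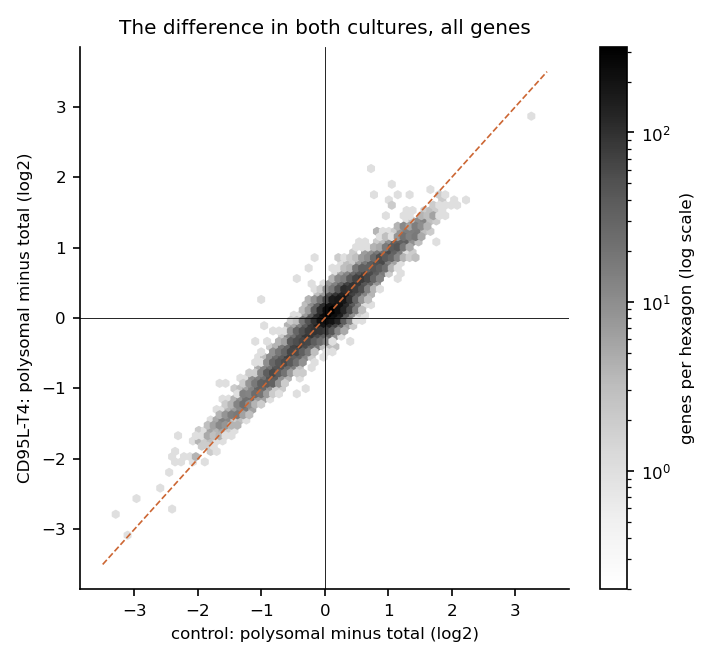
Polysomal minus total difference (log2) of 12393 genes in control (horizontal axis) and CD95L-T4 cultures (vertical axis), with darker hexagons holding more genes on a log scale and a dashed line of equal values. Genes lie along the line, at a Pearson correlation of 0.96.

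Probe sets of 1 gene did not always agree. Of 4956 genes with several probe sets, 234 had some called in opposite directions, and 3 of the named genes were among them: App, Pax6 and Top2a. For Top2a the brighter probe set stood at -1.10 and another at 0.49. For App 2 probe sets were lower, at -2.53 and -2.23, and another stood at 0.33. With the mean of a gene's probe sets, 27 of the 169 called genes of the rule for naming moved by over 1.5 times, and 0 turned in sign. Besides those given above, the size was smaller for Ankrd24 (1.12), App (-1.07), Bace1 (-0.92), Cct8 (-0.47), Cdh4 (-1.12), Cryab (1.12), Galnt4 (-1.003), Hnrnpa2b1 (-0.68), Itgb1 (-1.37), Med24 (-0.32), Ncan (-1.14), Notch2 (-0.71), Notch4 (0.60), Pvt1 (0.71), Rab40b (0.66), Top2a (-0.31), Tubb5 (-0.61) and Wwp1 (0.33). It was larger for Eif4e (0.61), Nes (-0.93), Rrm1 (-1.77), Tfrc (-2.60) and Tomm70a (-0.76). All of these kept their call. Med24, Ncan, Eif4e and Tfrc are not among the 27. Col9a1, Tubb4b and Tyms are, at 0.56, -0.20 and -0.40, and also kept their call. Which transcript forms these probe sets read was not analysed here.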

How the data were processed

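RNA of 15 samples was hybridised to Affymetrix mouse arrays. The authors deposited log2 values with 2 decimals, and their normalisation method is not given in the sources used here. Probe sets were named from the platform annotation of the deposited arrays, with symbols updated by Entrez ID through RefSeq (GRCm38.p6), which matched 12369 of 12393 genes. Of 22626 tested probe sets 20380 had 1 gene, 691 several and 1555 none. A gene was represented by its probe set with the highest mean over all arrays.

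All 15 arrays entered 1 linear model of the 4 group means (limma 3.58.1, R 4.3.3), with variances moderated by empirical Bayes. The contrast was control polysomal minus control total, two-sided, adjusted by Benjamini-Hochberg over 22626 probe sets, with a threshold of 0.05, and errors are limma's moderated standard errors. Arrays have no depth of reads, and precision is limited by the number of arrays. In simulated data with 200 changed probe sets among 22626, 81.5% of 1.5-fold and 98.7% of 2-fold changes of this contrast were recovered. Of the calls there, 5.75% were false. The simulation used independent normal noise, and the real arrays gave far more calls, 6745 probe sets higher and 5959 lower. Recovery and the share of false calls in the real data may therefore differ.

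The members, the 54 lists and the classes described were chosen with earlier results of these data known, and no list was tested as a set. A further list is not reported here. Named genes were the 15 largest rises and falls among called genes without overlap, per list the 2 called members furthest in the direction of the median and 1 in the other (or that with the smallest p), and 14 fixed genes. Other genes were chosen after their values were seen, as the text says. Alternatives were 3 other scalings between arrays, scaling to the added poly-A control probe sets (Dap, Lys, Phe, Thr and Trpn), filters that removed the dimmest 25% or the dimmest 50%, a fit to the 8 control arrays, a replicate block, trended and robust variance, array weights, the mean of a gene's probe sets, and leaving out each array. Protein sequences were not analysed here, and figures were drawn with matplotlib 3.10.9.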

Additional observations from a re-analysis of the deposited data

Results flagged for a closer look

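Each of the 175 named genes was looked at in both control groups. In 14 groups of 4 arrays 1 array lay far from the other 3, by the ratio of its gap to the whole range. Chance alone gives this in about 1 of 20 groups, so the 14 are no excess over that rate. In control total replicate 1, Actb stood at 13.86, below the others, and Celsr2 at 8.92, Clcn3 at 9.36, Lsm10 at 8.84, Ncam1 at 9.33 and Pmvk at 8.69, each above them. In the other total arrays, Sox2 stood at 11.63 in replicate 2, Epha7 at 4.23 and Timm8b at 10.62 in replicate 3, and Galnt4 at 9.97 in replicate 4. In polysomal RNA, Notch4 stood at 6.55 in replicate 1, Sel1l at 6.74 in replicate 2, and Hk1 at 7.25 and Igf2r at 6.25 in replicate 3. The gap was between 0.08 and 0.39 in log2. With the exception of Epha7, whose groups overlapped, these genes kept every array of 1 group above every array of the other.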

How the results depend on the processing

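The counts of genes lay within 1.5 times the reported ones under other scalings between arrays, a fit to the 8 control arrays, trended and robust variance, array weights, the mean of a gene's probe sets and each array left out. Without the dimmest 50% of probe sets, which tests fewer genes, 2750 were higher. Scaling to the added poly-A controls shifts every difference by 1 constant and gave 47 higher, 4724 lower, 14 at least 2-fold higher and 2996 at least 2-fold lower. Whether same-numbered total and polysomal arrays share a culture is not said in the titles. Deviations of same-numbered arrays correlated at -0.07, 0.04, 0.01 and 0.07. Those of differently numbered arrays correlated at -0.11 to 0.13, a wider range, so this check cannot settle pairing. The replicate block called 4427 genes higher and 3012 lower against 4514 and 3051 in the same fit without it. Of 3114 values of the 175 named genes under the 18 alternatives other than poly-A scaling, 3085 kept the call, 14 lost and 15 gained it, in 12 genes, and 0 reversed. With poly-A scaling 23 of the 83 named genes called higher lay below 0. A gain was seen for Olig2 and Pax6 in 6 and 7 settings. The lowest adjusted p of Olig2 was 0.000793 and that of Pax6 was 0.00342. Losses were those of Fth1 (0.15 with either quantile normalisation), Rpl12 (-0.25 with equal medians), Actb, Epha7, Hnrnpa1, Idua, Syp, Gfap and Itgam, and Col6a1 gained.

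The list medians are followed as the list's median minus that of all genes, so that a shift of a whole array drops out. Of 968 such values 849 moved by no more than the spread between arrays. That spread joins the SDs of the value over the total and over the polysomal arrays, as the root of their summed squares. Equal array medians, the fit to the 8 control arrays, the replicate block, and trended and robust variance cannot move the value. Their values are thus among the 849 by construction. The values that moved further are given here, the cause of the moves not tested beyond the number of members left. Without the dimmest 50% of probe sets it was 0.15 for cytosolic ribosomal proteins, 0.78 for mitochondrial ribosomal proteins, -0.10 for translation factors, -0.65 for aminoacyl-tRNA synthetases, -0.27 for other oligopyrimidine messages, -0.16 for spliceosome and hnRNP, 0.55 for polymerase II and Mediator, 0.34 for Zfp genes, -0.25 for chromatin, 0.87 for histones, -0.21 for DNA replication, 0.47 for oxidative phosphorylation, 0.81 for Timm and Tomm, -0.69 for heat shock chaperones, 0.58 for E2 enzymes, -0.38 for glycosyltransferases, -1.28 for lysosome, -1.41 for collagens, -1.41 for laminins, -1.84 for integrins, -1.59 for matrix glycoproteins, -1.03 for cadherins, -1.18 for neural adhesion, -0.88 for axon guidance, -0.82 for tetraspanins, -0.33 for solute carriers, -0.12 for Tmem genes, -0.23 for ion channels, -0.94 for growth factor receptors, -0.69 for motors, -0.55 for tubulins and actins, 0.66 for immediate early, 0.52 for known brakes, 0.48 for selenoproteins, 0.63 for noncoding hosts, -0.29 for stem cell markers, 0.32 for neuronal markers, -0.70 for oligodendrocyte markers and -0.66 for astrocyte markers. Without the dimmest 25% it was 0.73 for Timm and Tomm, -0.51 for heat shock chaperones, -0.32 for glycosyltransferases, -0.16 for collagens, -1.21 for laminins, -1.29 for matrix glycoproteins, -0.70 for cadherins, -0.98 for neural adhesion, -0.27 for axon guidance, -0.80 for tetraspanins, -0.16 for solute carriers, -0.69 for growth factor receptors, -0.48 for motors, -0.36 for tubulins and actins, 0.51 for immediate early, 0.10 for selenoproteins, -0.19 for oligodendrocyte markers, 0.26 for endothelial markers and -0.14 for fibroblast markers. Averaging over the probe sets of each gene, it was 0.15 for cytosolic ribosomal proteins, 0.64 for mitochondrial ribosomal proteins, -0.86 for aminoacyl-tRNA synthetases, -0.19 for other oligopyrimidine messages, -0.16 for spliceosome and hnRNP, -0.35 for chromatin, 0.46 for oxidative phosphorylation, 0.46 for Timm and Tomm, -0.73 for cholesterol, -0.24 for proteasome, -0.82 for CCT chaperonin, 0.57 for E2 enzymes, -0.90 for large ligases, -0.79 for COP coats, -0.99 for lysosome, -0.063 for laminins, -0.69 for matrix glycoproteins, -0.14 for axon guidance, -0.20 for motors, 0.28 for known brakes, 0.039 for noncoding hosts and -0.14 for astrocyte markers. With quantile normalisation over all arrays it was -0.68 for aminoacyl-tRNA synthetases, -0.41 for other oligopyrimidine messages, -0.17 for spliceosome and hnRNP, 0.31 for Zfp genes, -0.24 for chromatin, -0.24 for DNA replication, 0.36 for oxidative phosphorylation, -0.16 for glycosyltransferases, 0.03 for Tmem genes, -0.50 for growth factor receptors, 0.51 for known brakes, 0.14 for selenoproteins and -0.091 for fibroblast markers. With quantile normalisation of the 8 control arrays it was 0.012 for cytosolic ribosomal proteins, -0.68 for aminoacyl-tRNA synthetases, -0.40 for other oligopyrimidine messages, -0.17 for spliceosome and hnRNP, 0.31 for Zfp genes, -0.24 for chromatin, -0.24 for DNA replication, 0.36 for oxidative phosphorylation, -0.16 for glycosyltransferases, 0.031 for Tmem genes, -0.49 for growth factor receptors, 0.51 for known brakes, 0.14 for selenoproteins and -0.091 for fibroblast markers. Leaving out each array in turn, it ranged from 0.37 to 0.41 for oxidative phosphorylation, -0.30 to -0.22 for motors, 0.31 to 0.50 for known brakes, -0.18 to -0.037 for oligodendrocyte markers, -0.043 to 0.045 for astrocyte markers and 0.021 to 0.12 for endothelial markers.

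The 2 quantile values of Tmem genes turned the sign of a median that lies near that of all genes. A pseudocount was not run because the values are already log2, and the description by protein length and hydrophobic segments with its alternative thresholds was not run because no protein table was used here. Array data carry no depth. Dim genes limit the lists of surface, channel and marker genes, where values near 0 set no bound on a change.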

Other observations

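Further complexes were looked at after the values were seen, without a test of the group. The V-type ATPase, the proton pump of lysosomes and endosomes, had 6 of 12 genes of its soluble part higher and 4 lower, and 1 of 7 genes of its membrane part higher and 4 lower. Its catalytic subunit Atp6v1a stood at -0.87 and its partner Atp6v1b2 at -0.73, while the rotor and stalk subunits Atp6v1f, Atp6v1g2 and Atp6v1g1 stood at 1.47, 1.21 and 1.003. In the membrane part the subunit Atp6v0a1 stood at -0.78. Genes of the nuclear pore, the channel between nucleus and cytoplasm, were lower in 11 of 16 and higher in 2. The pore membrane protein gene Nup210 stood at -1.52 and the scaffold gene Nup133 at -1.11, while Nup37, of the same scaffold, stood at 0.38. Of 48 genes that RefSeq classes as transcribed pseudogenes 12 were higher and 2 lower, with a median of 0.15. Over all genes 33.5% were higher and 23.2% lower.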
